A study of Mus musculus with 24 samples.

Results

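The 9 genes described here encode the enzymes that finish prostanoid synthesis and the proteins that remove prostanoids again. The members were the consensus ATAC-seq peaks (stretches of open chromatin found in any library) that overlapped the body of 1 of these genes or the 20 kb on either side of it, which gave 134 of the 184060 peaks on the chromosomes. Tbxas1 held 54 of them, Ptges 16, Slco2a1 and Hpgd 12 each, Ptges3 10, Ptgr1 9, Ptgis and Ptges2 8 each, and Ptgds 5. The rule used position only, and 0 peaks were in reach of more than 1 of the genes. Of the 134 peaks, 87 touched a gene body, 32 lay upstream and 15 downstream. For 50 of them the closest start of a protein-coding gene belonged to another gene, so a peak near a member gene is not thereby a peak of that gene. Peaks are numbered within each gene by their position along the chromosome.

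Accessibility was measured in bone marrow-derived macrophages (BMDMs) of mice, with 24 libraries in 4 groups of 6. These crossed genotype, wildtype (WT) or AhR-KO, with treatment, unstimulated or LPS. WT marrow came from C57/B6/J mice and AhR-KO marrow from B6.129-Ahr tm1Bra/J mice, which lack the aryl hydrocarbon receptor (AhR), a transcription factor activated by small molecules, in every cell. Per the study's methods, mice of both sexes were matched for age and sex at 7 to 14 weeks, and each group was 6 animals from 1 experiment. Cells grew with 10% serum, GM-CSF at 10 ng/ml and TGF-β at 2 ng/ml, which was meant to give macrophages like those of the lung alveoli. LPS (lipopolysaccharide, from bacterial cell walls) was used at 97 EU/ml for 24 h from day 6, and the ionophore A23187, which lets calcium into cells, at 5 µM for the last 10 min. The labels attach the same treatment text to all 24 libraries, so whether unstimulated cultures also received the ionophore is not given in the sources used here. The knockout is present from the germline, so marrow precursors lacked the receptor as well, and genotype cannot be told apart from other differences between the mouse lines.

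Prostanoids are short-lived lipid signals made from arachidonic acid. Cyclooxygenases, the products of Ptgs1 and Ptgs2, form prostaglandin H2, and a terminal synthase then decides which prostanoid leaves the cell. Ptges, Ptges2 and Ptges3 encode prostaglandin E synthases, Ptgds a prostaglandin D synthase, Ptgis prostacyclin synthase and Tbxas1 thromboxane A synthase. Removal starts with uptake by the transporter encoded by Slco2a1, after which the dehydrogenase encoded by Hpgd oxidizes the prostaglandin and the reductase encoded by Ptgr1 reduces the product. Macrophages are a major source of prostaglandin E and thromboxane, and activation by LPS is known to induce Ptgs2 and Ptges.

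Sequences are shown for the peaks that carried the main differences. Each is the 300-base centre of a consensus peak on the plus strand of mm10, and none of these windows touched an exon. Both strands of each window were searched for GCGTG, the core of the element bound by AhR, for its longer form TNGCGTG, for TGANTCA, the AP-1 element, and for GAGGAAGT, a PU.1 element. Capitals mark a match to TNGCGTG, which includes the core, or to TGANTCA. The Ptges windows show sites that opened with LPS. The Ptges peak 10 window, chosen after its values were seen, is the one of this set with TGANTCA.
Ptges peak 7 (chr2:30913508-30913807): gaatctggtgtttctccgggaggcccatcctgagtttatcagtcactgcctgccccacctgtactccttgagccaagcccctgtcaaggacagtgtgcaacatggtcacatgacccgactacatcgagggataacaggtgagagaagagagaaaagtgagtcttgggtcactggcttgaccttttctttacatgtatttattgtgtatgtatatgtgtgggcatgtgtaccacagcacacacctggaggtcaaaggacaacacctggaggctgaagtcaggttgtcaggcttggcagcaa
Ptges peak 10 (chr2:30920187-30920486): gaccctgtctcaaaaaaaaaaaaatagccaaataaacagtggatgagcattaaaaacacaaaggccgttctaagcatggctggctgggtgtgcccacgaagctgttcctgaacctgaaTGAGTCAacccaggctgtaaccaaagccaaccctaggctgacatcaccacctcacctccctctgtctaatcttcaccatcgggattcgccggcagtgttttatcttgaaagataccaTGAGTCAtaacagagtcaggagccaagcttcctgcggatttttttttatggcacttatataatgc
The Tbxas1 windows show the only member DAR of genotype that held TNGCGTG and a Tbxas1 peak that was higher both in AhR-KO and with LPS. In Tbxas1 peak 3 all 7 bases of the match were masked as repeat.
Tbxas1 peak 3 (chr6:38860554-38860853): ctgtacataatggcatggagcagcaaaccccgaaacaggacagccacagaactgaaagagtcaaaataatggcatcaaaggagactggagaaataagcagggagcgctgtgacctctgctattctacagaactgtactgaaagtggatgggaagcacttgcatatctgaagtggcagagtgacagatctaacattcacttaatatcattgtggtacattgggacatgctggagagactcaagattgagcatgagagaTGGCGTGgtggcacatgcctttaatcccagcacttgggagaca
Tbxas1 peak 15 (chr6:38913242-38913541): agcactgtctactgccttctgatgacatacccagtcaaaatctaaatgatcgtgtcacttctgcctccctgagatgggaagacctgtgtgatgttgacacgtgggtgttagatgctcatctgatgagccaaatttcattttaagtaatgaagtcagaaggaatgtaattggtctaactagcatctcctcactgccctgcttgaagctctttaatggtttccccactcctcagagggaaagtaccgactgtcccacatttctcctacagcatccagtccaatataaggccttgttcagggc
The Hpgd and Ptgr1 windows show sites in the degradation genes that differed between genotypes, higher in AhR-KO in Hpgd and lower in Ptgr1.
Hpgd peak 3 (chr8:56287145-56287444): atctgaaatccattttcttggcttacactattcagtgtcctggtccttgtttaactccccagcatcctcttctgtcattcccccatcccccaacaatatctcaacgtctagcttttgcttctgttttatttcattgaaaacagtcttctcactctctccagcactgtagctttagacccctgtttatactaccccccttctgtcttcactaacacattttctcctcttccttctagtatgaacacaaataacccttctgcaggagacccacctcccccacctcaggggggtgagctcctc
Hpgd peak 4 (chr8:56292188-56292487): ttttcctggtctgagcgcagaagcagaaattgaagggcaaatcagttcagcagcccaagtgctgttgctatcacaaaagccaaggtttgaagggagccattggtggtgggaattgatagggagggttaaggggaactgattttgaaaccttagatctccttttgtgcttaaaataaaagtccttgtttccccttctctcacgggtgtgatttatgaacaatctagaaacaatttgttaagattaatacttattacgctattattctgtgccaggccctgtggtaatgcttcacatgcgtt
Hpgd peak 12 (chr8:56315192-56315491): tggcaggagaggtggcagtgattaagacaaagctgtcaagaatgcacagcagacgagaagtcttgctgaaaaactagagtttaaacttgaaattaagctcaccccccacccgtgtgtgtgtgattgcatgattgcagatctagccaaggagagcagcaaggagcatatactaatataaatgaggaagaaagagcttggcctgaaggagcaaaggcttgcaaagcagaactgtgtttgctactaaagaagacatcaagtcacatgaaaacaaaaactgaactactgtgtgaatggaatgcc
Ptgr1 peak 2 (chr4:58976320-58976619): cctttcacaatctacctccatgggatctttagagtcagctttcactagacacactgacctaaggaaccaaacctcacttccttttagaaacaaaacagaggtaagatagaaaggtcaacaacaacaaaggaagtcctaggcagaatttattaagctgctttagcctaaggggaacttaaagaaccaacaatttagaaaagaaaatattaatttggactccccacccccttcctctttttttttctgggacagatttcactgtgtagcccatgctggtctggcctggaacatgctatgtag
Among the 8 windows, GCGTG was found in Tbxas1 peak 3 and TGANTCA in Ptges peak 10, and the other 6 held none of the 4 elements. Over all consensus peaks, 16% of centre windows held GCGTG, 2.85% TNGCGTG, 17.9% TGANTCA and 7.33% GAGGAAGT. Over the 134 member windows these shares were 14.2%, 3.73%, 14.9% and 5.97%. In WT, 13 of 36 member windows that opened with LPS held TGANTCA (36.1%) against 1 of 20 that closed (5%). In AhR-KO the counts were 9 of 33 (27.3%) and 1 of 25 (4%). The shares over all peaks that opened or closed with LPS are not given here, so these counts describe the members only. Over whole peaks, TNGCGTG occurred in 11 of 134 member peaks and in 1 of the 47 that differed between genotypes. A match is a description of letters and not a site of binding.

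Levels are given as CPM (counts per 1 M), the fragments counted in a peak relative to the normalized total of the library, and as the lowest, the median and the highest of the 6 libraries of a group. Differences are log2 fold changes with standard errors (SE) from edgeR, with p-values adjusted over 174106 peaks by the Benjamini-Hochberg method. The labels do not say whether an unstimulated and an LPS library came from the same animal, so the p-values measure the spread between libraries, which are treated as independent. A differentially accessible region (DAR) had a fold change of 1.5 or more, up or down, with an adjusted p no higher than 0.05. Higher, lower, opened and closed are used below for DARs unless a value is given as short of that. Library totals in peaks ran from 8.51 to 34.5 M, with WT unstimulated replicate 5 the shallowest. The peak over the Ahr start held 20.3 to 24.6 CPM in WT unstimulated and 11.6 to 15.2 in AhR-KO unstimulated libraries, but the sources used here do not say which part of Ahr the allele removes, so this does not check the deletion. The start of Ahrr, a target of AhR, held 9.54 to 13.3 CPM in the 12 WT libraries and 2.04 to 4.14 in the 12 AhR-KO libraries, and so parted all 24 by genotype. In mixed cultures fewer cells of a type and less accessibility per cell cannot be told apart. Start peaks were present for 6 of 6 macrophage markers and 5 of 5 markers of alveolar-type macrophages, and for 0 of 3 T cell and 0 of 3 B cell markers.

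Of the 134 member peaks, 125 had counts high enough for testing. The other 9, which include the peak over the Ptgis start, had at most 1.83 CPM in any library and are described by level only. In unstimulated cells 31 of the 125 were DARs between genotypes (24.8%, against 22.6% of all tested peaks). The direction was uneven, with 25 higher in AhR-KO (20%, against 9.97% of all peaks) and 6 lower (4.8%, against 12.6%). With LPS 31 were DARs (24.8%, against 26.5%), 27 of them higher (21.6%, against 13.4%) and 4 lower (3.2%, against 13.1%). The median log2 fold change of the members was 0.23 in unstimulated and 0.17 in LPS cells, against -0.02 and 0.02 over all peaks. Tbxas1 contributed 15 of the 25 and 13 of the 27 higher DARs, and peaks of 1 locus are not independent of each other. All 6 AhR-KO libraries lay above all 6 WT libraries at 24 member peaks in unstimulated cells (9.78% of all peaks did so) and at 21 with LPS (10.6%). They lay below at 3 member peaks in each condition (11.2% and 8.96%). LPS libraries lay above all unstimulated ones at 31 peaks in WT (20.5% of all peaks) and 33 in AhR-KO (24.9%), and below at 20 (18.3%) and 23 (20.6%).

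Of the 25 peaks higher in AhR-KO without LPS, 13 were also higher with LPS (52%), which was 48.1% of the 27. Of the 6 and 4 lower peaks, 2 were shared, in Ptgds and Ptgr1. LPS changed more of the members than genotype did. In WT 56 of 125 were DARs (44.8%, against 47% of all peaks), 36 higher (28.8%, against 25.4%) and 20 lower (16%, against 21.6%). In AhR-KO 58 were DARs (46.4%, against 48.9%), 33 higher (26.4%, against 27.3%) and 25 lower (20%, against 21.5%). These shares were near those of all peaks, and the members' medians were -0.02 and -0.01. Of the peaks that opened, 30 did so in both genotypes, which was 83.3% of those in WT and 90.9% of those in AhR-KO. Of those that closed, 14 did so in both (70% and 56%). No share over all peaks is given for these overlaps between conditions or genotypes.

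**Figure D1:**
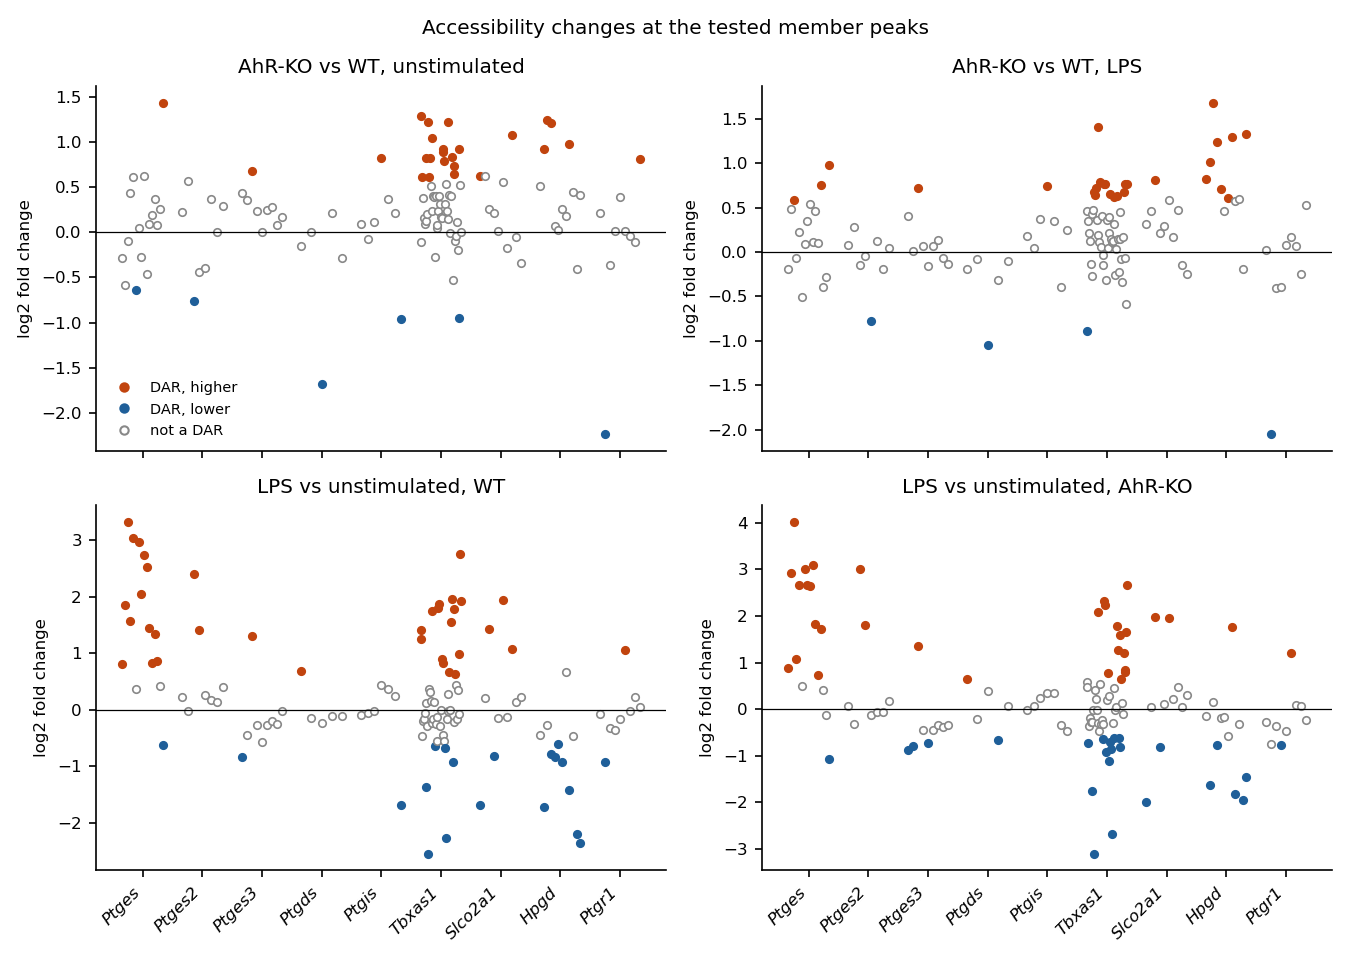
Log2 fold changes of the 125 tested member peaks by gene in the 4 pairwise comparisons, 1 point per peak, with DARs filled. Ptges shifts upward with LPS and Hpgd downward, Hpgd and Tbxas1 shift upward in AhR-KO, and Ptgds and Ptgr1 each hold 1 peak that is far lower in AhR-KO (-1.68 and -2.24 in unstimulated cells).

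Levels over the starts of the genes were compared per kb of peak over all 24 libraries. Ptges2 had 16.3 ± 2.03 CPM per kb (SD, n = 24), Ptges3 13.8 ± 2.36, Ptgr1 9.86 ± 2.21, Tbxas1 3.84 ± 0.700 and Hpgd 2.87 ± 0.740. For Ptgds, Ptges and Slco2a1 no tested peak covered the coding start, and the nearest held 2.197 ± 1.13, 1.29 ± 0.628 and 1.09 ± 0.521 CPM per kb. The Ptgis start peak held 1.52 ± 0.897. Ptgr1 and Tbxas1 were the only neighbours in this order whose libraries did not overlap. The levels over Ptges2 and Ptges3 overlapped each other, and neither start was a DAR in any of the 5 comparisons.

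Ptges encodes the inducible, membrane-bound prostaglandin E synthase, and its locus opened with LPS in both genotypes. In WT 13 of the 16 peaks were higher (25.4% of all peaks were) and 1 was lower (21.6%). In AhR-KO 12 were higher (27.3% of all peaks) and 1 was lower (21.5%), with the same 12 higher in both. Peaks 3, 4, 5, 6, 8, 9, 10 and 13 were called as broad peaks in LPS libraries only. They entered the peak set through those groups, and the counts of higher peaks are to be read with that. The median log2 fold change was 1.51 in WT and 1.76 in AhR-KO. Peak 7 (chr2:30912949-30914366, intron, 9.7 kb upstream of the coding start) held 0.645, 1.10 and 1.68 CPM for WT and 0.731, 1.23 and 1.58 for AhR-KO without LPS, against 7.18, 8.97 and 10.6 for WT and 6.97, 9.45 and 12.2 for AhR-KO with LPS. Every LPS library lay above every unstimulated library, and the genotypes overlapped. The log2 fold change with LPS was 2.97 (SE 0.17, adjusted p 8.01e-17) in WT and 3.01 (SE 0.16, adjusted p 7.46e-18) in AhR-KO, with a difference of 0.04 (SE 0.26).

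Nearest to the Ptges coding start, peak 4 (chr2:30901804-30902503, intron, 794 bases away) held a median of 0.429 CPM for WT and 0.593 for AhR-KO without LPS, against 1.28 for WT and 1.25 for AhR-KO with LPS. It opened by 1.57 (SE 0.22, adjusted p 8.72e-08) in WT and 1.07 (SE 0.20, adjusted p 1.64e-05) in AhR-KO on the log2 scale. Larger levels lay over the start of a longer, processed transcript of the gene, at peak 12 (chr2:30927075-30930100), which was added after its values were seen. This peak held a mean of 34.7 CPM in WT unstimulated and 61.6 in WT LPS, a log2 fold change of 0.83, and 0.74 in AhR-KO. Peak 10, whose window holds TGANTCA at 2 positions, rose from a mean of 0.666 to 3.92 CPM for WT, and for AhR-KO from 0.488 to 4.24, log2 fold changes of 2.53 and 3.10.

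Peak 2 of Ptges (chr2:30896797-30897972, intron, 5.3 kb inside the coding gene) opened more in AhR-KO than in WT. It held 1.32, 1.44 and 2.10 CPM in WT unstimulated and 0.827, 1.04 and 1.19 in AhR-KO unstimulated libraries. With LPS it held 4.77, 5.17 and 6.53 for WT, against 5.61, 7.94 and 9.48 for AhR-KO. The genotypes were apart without LPS, with AhR-KO lower, and overlapped with LPS, with AhR-KO mostly higher. The log2 fold change with LPS was 1.85 (SE 0.15, adjusted p 2.54e-13) in WT and 2.92 (SE 0.15, adjusted p 5.75e-19) in AhR-KO. The difference was 1.07 (SE 0.22, adjusted p 0.000995). The unstimulated genotype difference of -0.58 (SE 0.19, adjusted p 0.0111) fell just short of the fold threshold and passed it in 12 of the 24 fits that left out 1 library.

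Without LPS 1 of the 16 Ptges peaks was higher in AhR-KO (9.97% of all peaks were) and 1 was lower (12.6%). With LPS 3 were higher (13.4% of all peaks) and 0 were lower (13.1%). Peak 16 (chr2:30946789-30947222) was higher in AhR-KO in both conditions. It lay 16.9 kb upstream of the gene and 5.7 kb from the start of Tor1b, which is the nearer gene. It held 1.42, 2.20 and 3.09 CPM for WT and 5.18, 5.99 and 7.10 for AhR-KO without LPS, against 1.24, 1.42 and 1.81 for WT and 2.14, 2.93 and 3.56 for AhR-KO with LPS. AhR-KO lay above WT in all libraries of both conditions, by 1.44 (SE 0.14, adjusted p 3.25e-10) and 0.98 (SE 0.15, adjusted p 1.19e-06). LPS closed this peak in AhR-KO by -1.08 (SE 0.13, adjusted p 4.56e-09). The WT change was -0.62 (SE 0.16, adjusted p 0.000786), which was short of the fold threshold without WT unstimulated replicate 2 (-0.49), WT unstimulated replicate 6 (-0.57) or WT LPS replicate 6 (-0.58).

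**Figure D2:**
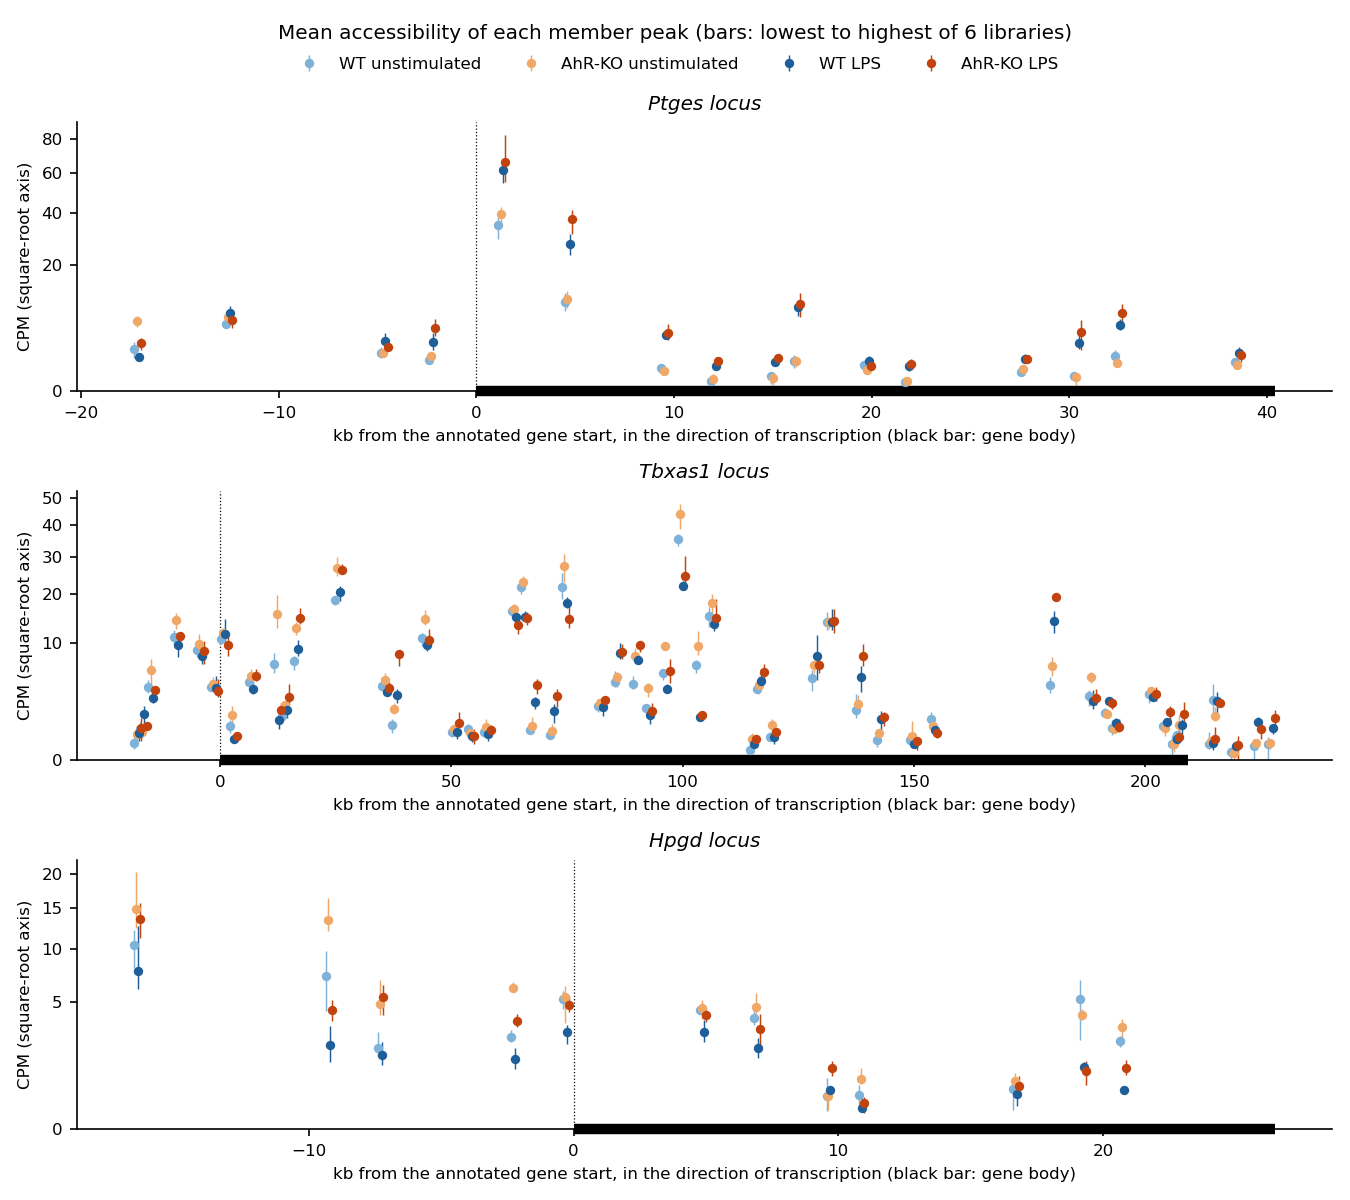
Mean CPM of each member peak of Ptges, Tbxas1 and Hpgd in the 4 groups, on a square-root axis, against the distance from the annotated gene start, with bars from the lowest to the highest of 6 libraries. LPS groups lie above unstimulated groups over most of Ptges, AhR-KO lies above WT at the upstream peaks of Hpgd, and Tbxas1 has peaks of both kinds along its 209.2 kb body.

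Ptges2 and Ptges3 encode the other prostaglandin E synthases, both regarded as constitutive, and Ptges3 is also the co-chaperone p23 of the Hsp90 complex that holds AhR. At Ptges2 1 of 8 peaks was a DAR between genotypes without LPS (22.6% of all peaks were) and 1 with LPS (26.5%). LPS opened 2 in both genotypes, where 25.4% of all peaks opened in WT and 27.3% in AhR-KO. The start of Ptges2 (peak 6, chr2:32394953-32396744) held 21.9, 25.4 and 27.5 CPM in WT unstimulated and 29.7, 32.1 and 37.0 in AhR-KO unstimulated libraries. These did not overlap, but the log2 fold change of 0.37 (SE 0.07, adjusted p 2.94e-05) was below the fold threshold. With LPS the genotypes overlapped, at 0.12 (SE 0.07).

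The largest LPS response assigned to Ptges2 belonged to another gene's start. Peak 3 (chr2:32387282-32388413) covers the start of Lcn2, which encodes lipocalin-2, an LPS-induced protein, and lay 7.5 kb from Ptges2. It held 1.34, 2.63 and 3.67 CPM for WT and 1.37, 1.496 and 1.61 for AhR-KO without LPS, against 9.44, 13.4 and 16.9 for WT and 9.32, 11.5 and 15.2 for AhR-KO with LPS. LPS libraries all lay above unstimulated ones, by 2.40 (SE 0.17, adjusted p 1.4e-13) in WT and 3.0 (SE 0.18, adjusted p 1.21e-15) in AhR-KO. It was lower in AhR-KO without LPS (-0.76, SE 0.21, adjusted p 0.00473), where the groups overlapped. The small peak 5 of Ptges2 (chr2:32393072-32393331), 2.6 kb upstream, was lower in AhR-KO with LPS, from a median of 2.66 to 1.47 CPM with overlap (-0.78, SE 0.20, adjusted p 0.0022). It was called as a broad peak in 2 WT unstimulated, 2 WT LPS and 0 AhR-KO libraries. It thus entered the peak set through WT, where it was high, and this difference is to be read with that.

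At Ptges3 the start peak (peak 4, chr10:128057814-128059929) was no DAR in any comparison. Its median was 29.8 CPM for WT and 35.2 for AhR-KO without LPS, against 24.98 for WT and 25.5 for AhR-KO with LPS. Peak 3 of Ptges3 (chr10:128056762-128056986), 2.0 kb upstream, was higher in AhR-KO and with LPS. It held 0.523, 0.981 and 1.24 CPM for WT and 1.10, 1.63 and 1.79 for AhR-KO without LPS, against 1.73, 2.31 and 2.95 for WT and 3.67, 3.76 and 4.22 for AhR-KO with LPS. The genotypes overlapped without LPS and were apart with it. The genotype log2 fold change was 0.68 (SE 0.19, adjusted p 0.00358) without LPS and 0.72 (SE 0.14, adjusted p 4.75e-05) with LPS, the former 0.53 and no DAR without WT unstimulated replicate 2. LPS raised it by 1.31 (SE 0.17, adjusted p 3.45e-08) in WT and 1.35 (SE 0.15, adjusted p 5.67e-10) in AhR-KO. Peak 3 was called as a broad peak in LPS libraries only, where it was high, so its LPS differences are to be read with that.

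Ptgds encodes the lipocalin-type prostaglandin D synthase. Of its 5 peaks, 1 was lower in AhR-KO in both conditions (12.6% of all peaks were without LPS and 13.1% with LPS). None was higher (9.97% and 13.4% of all peaks). Peak 3 (chr2:25465796-25466757) lies over the last exon and the 3′ end, 3.0 kb from the start. It held 2.04, 3.26 and 4.44 CPM for WT and 0.704, 1.11 and 1.30 for AhR-KO without LPS, against 2.22, 2.79 and 3.30 for WT and 0.979, 1.22 and 2.02 for AhR-KO with LPS. In both conditions each AhR-KO library was under each WT library. The log2 fold change was -1.68 (SE 0.19, adjusted p 7.44e-09) without LPS and -1.04 (SE 0.18, adjusted p 7.66e-06) with LPS. The difference of 0.64 (SE 0.26, adjusted p 0.0969) did not pass the test, apart from the fit without WT unstimulated replicate 6 (0.73, adjusted p 0.0454). The peak was called in all 12 WT libraries and in 0 of the 12 AhR-KO libraries in the deposited lists of broad peaks. It thus entered the peak set through WT alone, where it was high, and its genotype differences are to be read with that. LPS opened peak 1 (chr2:25450941-25451684, 18.1 kb from the start and nearer to Clic3), by 0.68 (SE 0.13, adjusted p 1.84e-05) in WT and 0.65 (SE 0.13, adjusted p 3.65e-05) in AhR-KO.

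Ptgis, which encodes prostacyclin synthase, had little accessibility at its start. Peak 6 (chr2:167240582-167240800) covers it and held 1 to 16 fragments per library, too few for testing, at a median of 0.424 CPM for WT and 0.215 for AhR-KO without LPS, against 0.309 for WT and 0.258 for AhR-KO with LPS. The most accessible peak of the gene was peak 4 (chr2:167224592-167225532, over an exon, 15.1 kb inside the gene). It held 4.66, 5.45 and 6.45 CPM for WT and 8.58, 9.90 and 10.97 for AhR-KO without LPS, against 5.68, 7.23 and 9.60 for WT and 11.4, 12.4 and 14.9 for AhR-KO with LPS. AhR-KO lay above WT in every library of both conditions, by 0.83 (SE 0.11, adjusted p 1.91e-07) and 0.74 (SE 0.10, adjusted p 2.53e-07). LPS changes here were 0.44 and 0.35, below the fold threshold.

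Ptgis peak 8 (chr2:167260486-167260658), 19.9 kb upstream and close to the edge of the window, was small. It held 0.531, 1.05 and 1.24 CPM for WT and 0.382, 0.445 and 0.748 for AhR-KO without LPS, against 0.201, 0.268 and 0.490 for WT and 0.203, 0.301 and 0.539 for AhR-KO with LPS, from 5 to 27 fragments each. It was called as a broad peak in 2 WT unstimulated libraries and in 0 libraries of the other groups, so it entered the peak set through the group where it was high, and its differences below are to be read with that. Only in WT did the LPS and unstimulated libraries not overlap. LPS closed it in WT by -1.69 (SE 0.27, adjusted p 1.1e-06), and AhR-KO was lower without LPS by -0.96 (SE 0.26, adjusted p 0.00312). The difference between the LPS responses was 1.21 (SE 0.40, adjusted p 0.0357). It did not pass the test with DESeq2 (1.17, adjusted p 0.0607) or in 12 of the 24 fits without 1 library, where it was 1.03 to 1.19.

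**Figure D3:**
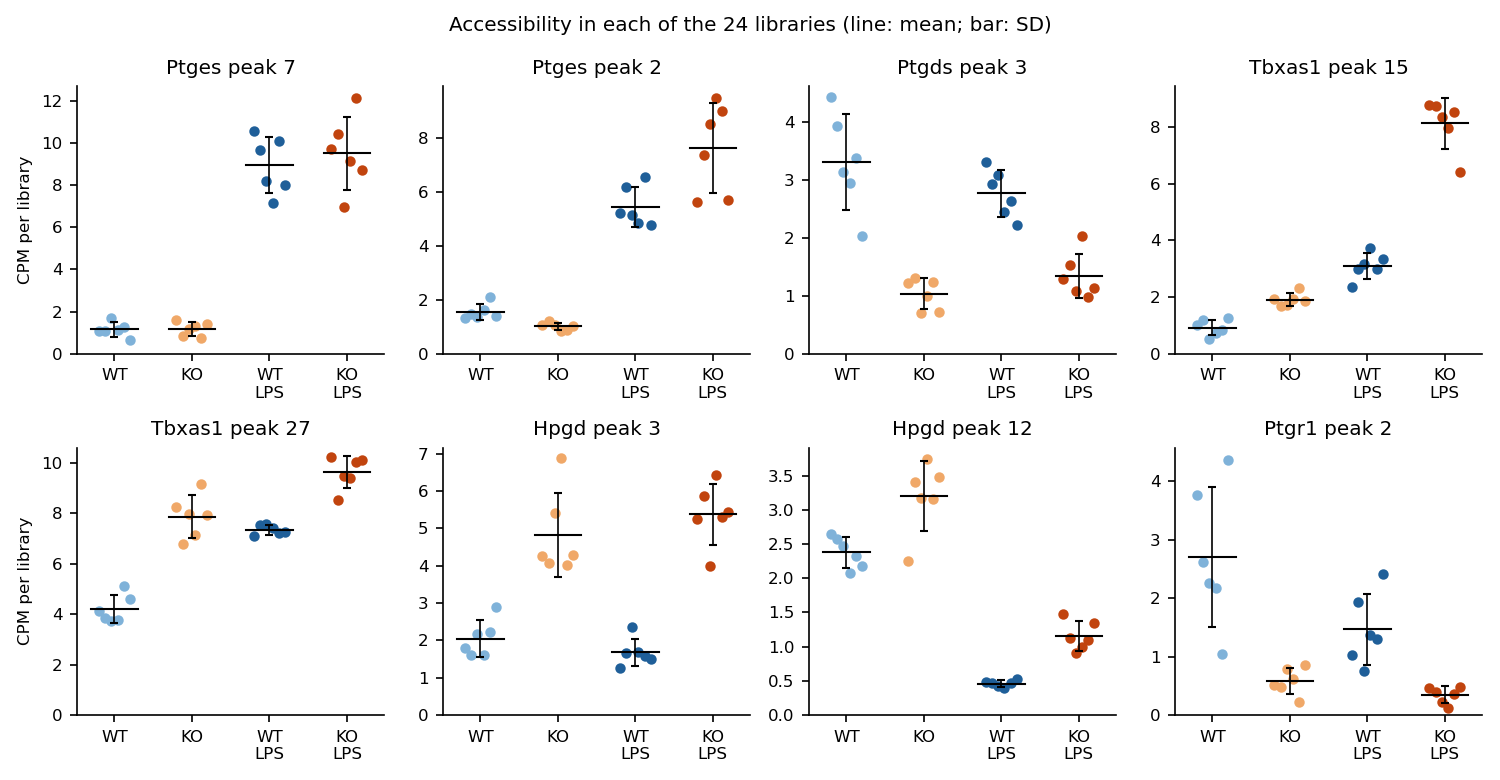
CPM of named member peaks in each of the 24 libraries, 1 point per library, with a line at the mean and a bar of 1 SD for each group of 6. The AhR-KO libraries lie below WT at Ptgds peak 3 and Ptgr1 peak 2 and above WT at Hpgd peak 3 and Tbxas1 peak 15 in both conditions, while Ptges peak 7 parts by LPS alone.

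Tbxas1 encodes thromboxane A synthase, and its 209.2 kb body gave more member peaks than any other of the 9 genes. In AhR-KO 15 of its 49 tested peaks were higher (9.97% of all peaks were) and 1 was lower (12.6%) without LPS. With LPS 13 were higher (13.4% of all peaks) and 1 was lower (13.1%), with 7 of the higher ones shared. Of the tested peaks, 1, 8, 17, 18, 19, 35, 41, 47, 49 and 54 were called as broad peaks in AhR-KO libraries only, and peak 2 in WT only. They entered the peak set through 1 genotype, and the genotype counts are to be read with that. With LPS 15 opened and 6 closed in WT (25.4% and 21.6% of all peaks did so), and 13 opened and 12 closed in AhR-KO (27.3% and 21.5%), so the opened counts were near the background. Tested peaks 1, 2, 17, 22, 23, 39, 47, 49, 53 and 54 were called as broad peaks in LPS libraries only. Peaks 8, 18, 19, 31, 35 and 41 were called in unstimulated libraries only. All of these entered the peak set through 1 treatment, and the LPS counts are to be read with that. The gene has 2 annotated coding starts, and peak 16 covers the second (chr6:38918410-38921371). This start held 9.53, 10.9 and 11.8 CPM for WT and 13.2, 14.4 and 16.3 for AhR-KO without LPS, against 8.71, 9.79 and 10.4 for WT and 9.70, 10.1 and 12.5 for AhR-KO with LPS. AhR-KO lay above WT without LPS, but the log2 fold change of 0.40 (SE 0.08, adjusted p 7.4e-05) was below the fold threshold. It was 0.11 (SE 0.08) with LPS.

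Some intronic peaks were DARs where the start was not. Peak 15 of Tbxas1 (chr6:38912933-38913850), 5.1 kb from the second coding start, was higher in AhR-KO and with LPS. It held 0.531, 0.905 and 1.24 CPM for WT and 1.68, 1.89 and 2.33 for AhR-KO without LPS, against 2.34, 3.08 and 3.72 for WT and 6.42, 8.45 and 8.81 for AhR-KO with LPS. The 4 groups did not overlap. AhR-KO was higher by 1.05 (SE 0.18, adjusted p 7.94e-06) without LPS and by 1.40 (SE 0.12, adjusted p 1.91e-11) with LPS. LPS opened the peak by 1.74 (SE 0.16, adjusted p 1.03e-11) in WT and 2.09 (SE 0.13, adjusted p 1.56e-16) in AhR-KO, and these responses differed by 0.35 (SE 0.22, adjusted p 0.304).

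Peak 27 of Tbxas1 (chr6:38965050-38965905, intron) held 3.72, 3.97 and 5.13 CPM for WT and 6.78, 7.95 and 9.14 for AhR-KO without LPS, against 7.09, 7.33 and 7.57 for WT and 8.53, 9.75 and 10.2 for AhR-KO with LPS. The WT unstimulated group was the low one. AhR-KO was higher by 0.93 (SE 0.09, adjusted p 5.41e-10) without LPS, and by 0.39 (SE 0.08, adjusted p 0.000203), below the fold threshold, with LPS. LPS opened it in WT by 0.83 (SE 0.09, adjusted p 9.27e-10), against 0.29 in AhR-KO. The difference of -0.54 (SE 0.13, adjusted p 0.00299) was just below the fold threshold, and it passed with DESeq2 (-0.60), with RLE size factors (-0.59), and without WT unstimulated replicate 5 (-0.59) or replicate 6 (-0.60).

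Other intronic Tbxas1 peaks closed with LPS. Peak 31 (chr6:38978769-38979201) held 5.48, 6.77 and 7.21 CPM for WT and 8.01, 9.44 and 12.02 for AhR-KO without LPS, against 1.14, 1.32 and 1.67 for WT and 1.28, 1.42 and 1.75 for AhR-KO with LPS. All LPS libraries lay below all unstimulated libraries, by -2.27 (SE 0.12, adjusted p 6.74e-18) in WT and -2.69 (SE 0.12, adjusted p 1.47e-20) in AhR-KO. Peak 31 was called as a broad peak in unstimulated libraries only, where it was high, so its LPS differences are to be read with that. Peak 24 (chr6:38948964-38951232) held a median of 21.8 CPM for WT and 27.6 for AhR-KO without LPS, against 17.7 for WT and 14.2 for AhR-KO with LPS. It closed in AhR-KO (-0.92, SE 0.08, adjusted p 7.8e-13) and changed by -0.28 in WT, a difference of -0.63 (SE 0.11, adjusted p 0.00015). TNGCGTG occurred in peak 24, which was no DAR between genotypes. Peak 3 (chr6:38860065-38861341), the only member DAR of genotype with TNGCGTG, lay 14.1 kb upstream within the neighbour Hipk2. It was higher in AhR-KO without LPS, at 4.14, 5.98 and 7.49 CPM against 3.23, 3.74 and 4.66 in WT, with overlap (0.61, SE 0.12, adjusted p 0.000116). The call was at the edge of the fold threshold and was lost without AhR-KO unstimulated replicate 1 (0.58), AhR-KO unstimulated replicate 5 (0.53) or WT unstimulated replicate 3 (0.56).

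**Figure D4:**
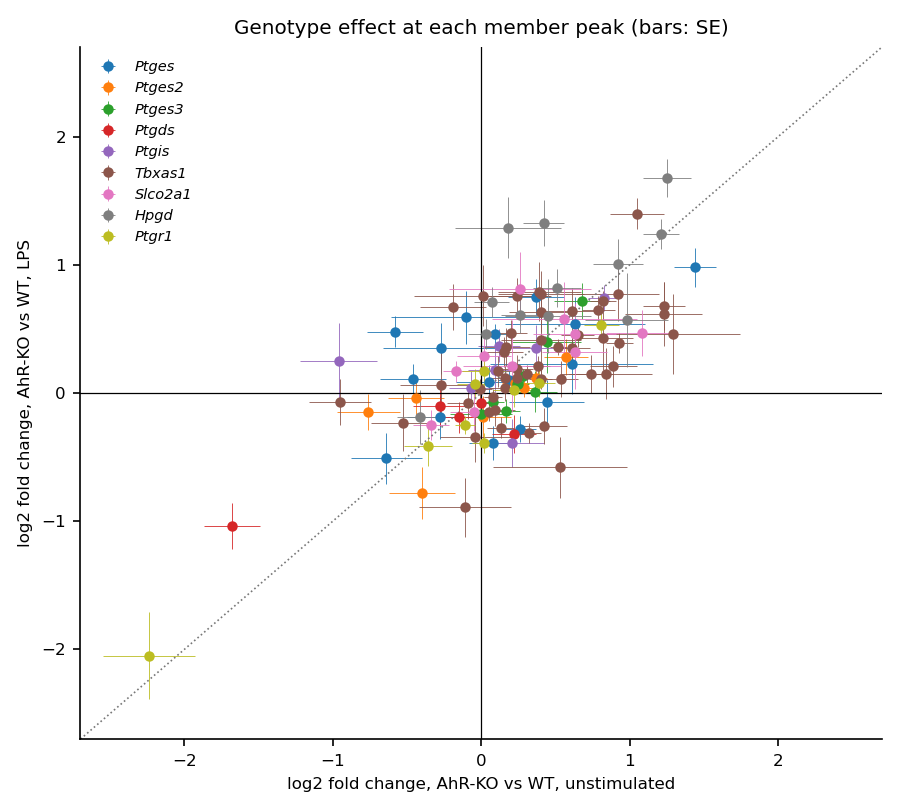
Log2 fold change of each tested member peak between AhR-KO and WT without LPS (horizontal axis) and with LPS (vertical axis), 1 point per peak with bars of 1 SE, coloured by gene. Most of the 125 points, 98, have the same sign in both, with Hpgd and Tbxas1 peaks at the upper right and Ptgr1 peak 2 and Ptgds peak 3 at the lower left. The share of all tested peaks with the same sign is not given here.

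Slco2a1 encodes the prostaglandin transporter, which takes prostaglandins into the cell for degradation. Accessibility near its coding start was low, and no tested peak covered that start. Peak 4 (chr9:103008240-103008770, over an exon, 238 bases from the start) held 0.463, 0.704 and 0.830 CPM for WT and 0.552, 0.810 and 1.19 for AhR-KO without LPS, against 0.118, 0.377 and 0.686 for WT and 0.0406, 0.422 and 1.03 for AhR-KO with LPS, from 1 to 26 fragments each. The groups overlapped. The log2 fold change with LPS was -0.82 in WT (SE 0.35, adjusted p 0.0427) and -0.82 in AhR-KO (SE 0.34, adjusted p 0.0322), and these calls were lost in 9 and 6 of the 24 fits without 1 library, at -0.66 to -0.84 and -0.59 to -0.81. Peak 4 was called as a broad peak in 1 AhR-KO unstimulated library and in 0 libraries of the other groups. It thus entered the peak set through unstimulated cells, where it was higher, and its LPS differences are to be read with that.

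Peak 1 of Slco2a1 (chr9:102982438-102982799), 5.9 kb upstream of the gene, closed with LPS. It held 0.662, 1.08 and 1.49 CPM for WT and 1.22, 1.56 and 2.06 for AhR-KO without LPS, against 0.118, 0.297 and 0.547 for WT and 0.292, 0.402 and 0.528 for AhR-KO with LPS. LPS libraries lay below all unstimulated ones, by -1.68 (SE 0.26, adjusted p 6.8e-07) in WT and -2.0 (SE 0.24, adjusted p 2.93e-09) in AhR-KO. Peak 1 was called as a broad peak in unstimulated libraries only, where it was high, so its LPS differences are to be read with that. The higher level in AhR-KO without LPS (0.63, SE 0.22, adjusted p 0.0194) was no DAR without WT unstimulated replicate 1 (0.54) or 2 (0.53) or AhR-KO unstimulated replicate 5 (0.55) or 6 (0.58).

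The other Slco2a1 calls were at low counts too. Peak 10 (chr9:103093860-103094152, 17.6 kb from Rab6b, the nearer start) was higher in AhR-KO without LPS, at 0.958, 1.30 and 1.74 CPM against 0.331, 0.668 and 0.741 in WT with no overlap (1.08, SE 0.24, adjusted p 0.000335). LPS opened it in WT by 1.08 (SE 0.23, adjusted p 9.91e-05). Peak 3 (chr9:102993825-102994116) was higher in AhR-KO with LPS, at 0.650, 0.984 and 2.14 CPM against 0.240, 0.743 and 1.06 in WT with overlap (0.81, SE 0.29, adjusted p 0.0242). It was no DAR without WT LPS replicate 1 (0.62) or 2 (0.74) or AhR-KO LPS replicate 3 (0.63) or 4 (0.60), nor in a fit of the 2 groups alone (0.79, adjusted p 0.078). Peak 3 was called as a broad peak in 2 AhR-KO LPS libraries and in 0 libraries of the other groups. It thus entered the peak set through the group where it was high, and its differences are to be read with that.

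Hpgd encodes 15-hydroxyprostaglandin dehydrogenase, which inactivates prostaglandin E2. Its genotype DARs went 1 way, with 4 of 12 peaks higher in AhR-KO without LPS (9.97% of all peaks were) and 8 of 12 with LPS (13.4%). Of the higher ones 3 were shared, and 0 were lower in either condition (12.6% and 13.1% of all peaks). Peaks 8, 9 and 10 were called as broad peaks in AhR-KO libraries only. They entered the peak set through AhR-KO, and the counts of higher peaks are to be read with that. Peaks 8 and 10 were called with LPS only and peak 9 without LPS only, so the LPS counts below are to be read likewise. The nearest coding start of all 12 peaks was that of Hpgd. The median log2 fold change between genotypes was 0.44 without LPS and 0.76 with LPS. LPS itself closed 8 of the 12 peaks in WT (21.6% of all peaks closed) and opened 0 (25.4%). In AhR-KO it closed 5 (21.5% of all peaks), all among those 8, and opened 1 (27.3%).

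The start of Hpgd (peak 5, chr8:56293500-56295085) parted the genotypes with LPS only. It held 4.44, 5.12 and 5.83 CPM for WT and 3.47, 5.60 and 6.29 for AhR-KO without LPS, against 2.20, 2.93 and 3.33 for WT and 4.23, 4.68 and 5.44 for AhR-KO with LPS. WT LPS libraries lay below those of the other 3 groups. The log2 fold change between genotypes was 0.07 (SE 0.12, adjusted p 0.688) without LPS and 0.71 (SE 0.12, adjusted p 7.61e-06) with LPS. LPS closed the start in WT by -0.83 (SE 0.12, adjusted p 2.86e-07), and in AhR-KO the change was -0.19 (SE 0.12, adjusted p 0.149). The difference was 0.64 (SE 0.17, adjusted p 0.00823), and it was below the fold threshold without AhR-KO unstimulated replicate 2 (0.55) or WT LPS replicate 5 (0.58).

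Upstream of Hpgd the genotype difference was present in both conditions. Peak 3 (chr8:56286714-56287875), 6.7 kb upstream, held 1.61, 1.98 and 2.88 CPM for WT and 4.02, 4.28 and 6.88 for AhR-KO without LPS, against 1.26, 1.62 and 2.36 for WT and 3.98, 5.37 and 6.43 for AhR-KO with LPS. AhR-KO lay above WT in all libraries, by 1.25 (SE 0.16, adjusted p 1.22e-07) and 1.68 (SE 0.15, adjusted p 7.67e-11), and LPS changes were no DARs (-0.27 and 0.16). Peak 4 (chr8:56291954-56292720), 1.9 kb upstream, held 2.33, 2.49 and 3.01 CPM for WT and 5.76, 6.02 and 6.66 for AhR-KO without LPS, against 1.10, 1.49 and 2.02 for WT and 3.24, 3.46 and 4.09 for AhR-KO with LPS. AhR-KO was higher by 1.21 (SE 0.12, adjusted p 3.73e-10) in unstimulated and by 1.24 (SE 0.12, adjusted p 5.36e-10) in LPS cells, without overlap. LPS closed this peak by a like amount in both genotypes, -0.79 (SE 0.13, adjusted p 3.18e-06) in WT and -0.77 (SE 0.11, adjusted p 1.98e-07) in AhR-KO, with a difference of 0.02 (SE 0.17).

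Within the gene, peak 12 (chr8:56315118-56315565, intron) closed with LPS and less so in AhR-KO. It held 2.08, 2.41 and 2.65 CPM for WT and 2.25, 3.29 and 3.75 for AhR-KO without LPS, against 0.392, 0.470 and 0.523 for WT and 0.905, 1.12 and 1.47 for AhR-KO with LPS. The genotypes overlapped without LPS and were apart with it. LPS changed it by -2.36 (SE 0.17, adjusted p 7.31e-15) in WT and by -1.45 (SE 0.14, adjusted p 2.18e-11) in AhR-KO. The difference was 0.90 (SE 0.22, adjusted p 0.00479), and AhR-KO was higher with LPS by 1.33 (SE 0.18, adjusted p 1.16e-07).

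Ptgr1 encodes prostaglandin reductase 1, which also acts on leukotriene B4. Its start (peak 4, chr4:58986458-58987403) held 9.82, 10.8 and 12.6 CPM for WT and 10.3, 11.1 and 12.4 for AhR-KO without LPS, against 7.87, 8.58 and 9.38 for WT and 5.52, 6.46 and 7.67 for AhR-KO with LPS. The unstimulated groups overlapped, and with LPS each AhR-KO library was under each WT library. LPS closed the start in AhR-KO by -0.77 (SE 0.09, adjusted p 5.11e-10). The change in WT was -0.36 (SE 0.08, adjusted p 0.000371) and the genotype difference with LPS -0.39 (SE 0.08, adjusted p 0.000249), both below the fold threshold, as was the difference of the LPS responses (-0.41, SE 0.12, adjusted p 0.0156).

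The largest loss in AhR-KO among the 125 tested peaks was at peak 2 of Ptgr1 (chr4:58976281-58976657, intron, 10.5 kb inside the gene). It held 1.05, 2.44 and 4.37 CPM for WT and 0.229, 0.561 and 0.849 for AhR-KO without LPS, against 0.748, 1.34 and 2.42 for WT and 0.119, 0.384 and 0.487 for AhR-KO with LPS. The WT libraries were widely spread, and in both conditions every AhR-KO library lay below every WT library. The log2 fold change was -2.24 (SE 0.31, adjusted p 1.09e-06) without LPS and -2.05 (SE 0.34, adjusted p 1.41e-05) with LPS. LPS closed it in WT by -0.93 (SE 0.26, adjusted p 0.00301). In AhR-KO the change was -0.74 (SE 0.41, adjusted p 0.112), which passed the test without AhR-KO unstimulated replicate 5 (-0.90) and in a fit of the 2 groups alone (-0.77).

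Upstream peaks of Ptgr1 lay nearer to other starts. Peak 6 (chr4:58990685-58991591, 3.5 kb from the start of Dnajc25) opened with LPS, from a median of 2.67 to 5.49 CPM for WT, and for AhR-KO from 2.67 to 6.33, without overlap. The rise on the log2 scale was 1.05 in WT (SE 0.14, adjusted p 2.62e-08) and 1.21 in AhR-KO (SE 0.13, adjusted p 5.02e-10). Peak 9 (chr4:59005464-59006467, 2.3 kb from the start of Gm20503) was higher in AhR-KO without LPS, at 8.45, 9.52 and 10.6 CPM against 3.85, 5.30 and 6.62 in WT (0.81, SE 0.12, adjusted p 8.92e-07). With LPS it was also above WT in all libraries, by 0.53, below the fold threshold.

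The LPS response differed between genotypes at 9 of the 125 tested member peaks (7.2%, against 10.4% of all peaks), 6 of them with a positive difference (4.8%, against 5.82%) and 3 with a negative one (2.4%, against 4.6%). They were 5 peaks of Tbxas1, 2 of Hpgd and 1 each of Ptges and Ptgis. The split by direction was not stable. RLE size factors gave 6 positive and 5 negative differences (54.5% positive, against 66.7% with TMM), DESeq2, which also changes the test, gave 4 and 6 (40%), and edgeR without WT unstimulated replicate 1 gave 3 and 4 (42.9%).

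The rest of the pathway was read at start peaks, which 15 of 17 listed genes had (Ptgdr2 and Tbxa2r had none). In AhR-KO 4 of the 15 were lower and 0 higher without LPS, where 12.6% of all peaks were lower, and 2 were lower and 0 higher with LPS, where 13.1% were. With so few starts these counts are a description only. Upstream of the terminal synthases, the start of Ptgs1 held 33.4 to 43.3 CPM in WT unstimulated and 21.1 to 25.2 in AhR-KO unstimulated libraries (-0.79, SE 0.08, adjusted p 1.3e-10). The start of Ptgs2, also upstream, held 14.2 to 17.4 and 9.39 to 11.5 CPM (-0.61, SE 0.07, adjusted p 1.01e-08). That of Hpgds, the hematopoietic prostaglandin D synthase and thus itself a terminal synthase, held 28.5 to 34.7 and 18.4 to 21.8 CPM (-0.63, SE 0.09, adjusted p 9.45e-07). In all 3 the genotypes did not overlap. Among the receptors, Ptger3 was lower in unstimulated cells (-1.38, SE 0.11, adjusted p 1.12e-12) as well as LPS cells (-1.06, SE 0.11, adjusted p 8.25e-10), and Ptgdr was lower with LPS at under 1 CPM (-0.87, SE 0.33, adjusted p 0.0305).

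With LPS the starts of Ptgs1 and Ptgs2 went opposite ways. Ptgs2 opened by 0.96 (SE 0.07, adjusted p 3.35e-15) in WT and 1.62 (SE 0.07, adjusted p 1.13e-21) in AhR-KO. These responses differed by 0.66 (SE 0.09, adjusted p 8.39e-06), and the LPS libraries reached 27.9 to 33.7 CPM for WT and 28.4 to 35.2 for AhR-KO. Ptgs1 closed by -1.05 (SE 0.07, adjusted p 9.23e-15) in WT and -0.61 (SE 0.08, adjusted p 1.16e-08) in AhR-KO. Ptger3 closed in both genotypes (-0.91 and -0.59), and the other 12 start peaks of the list were no DARs with LPS in either genotype.

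**Figure D5:**
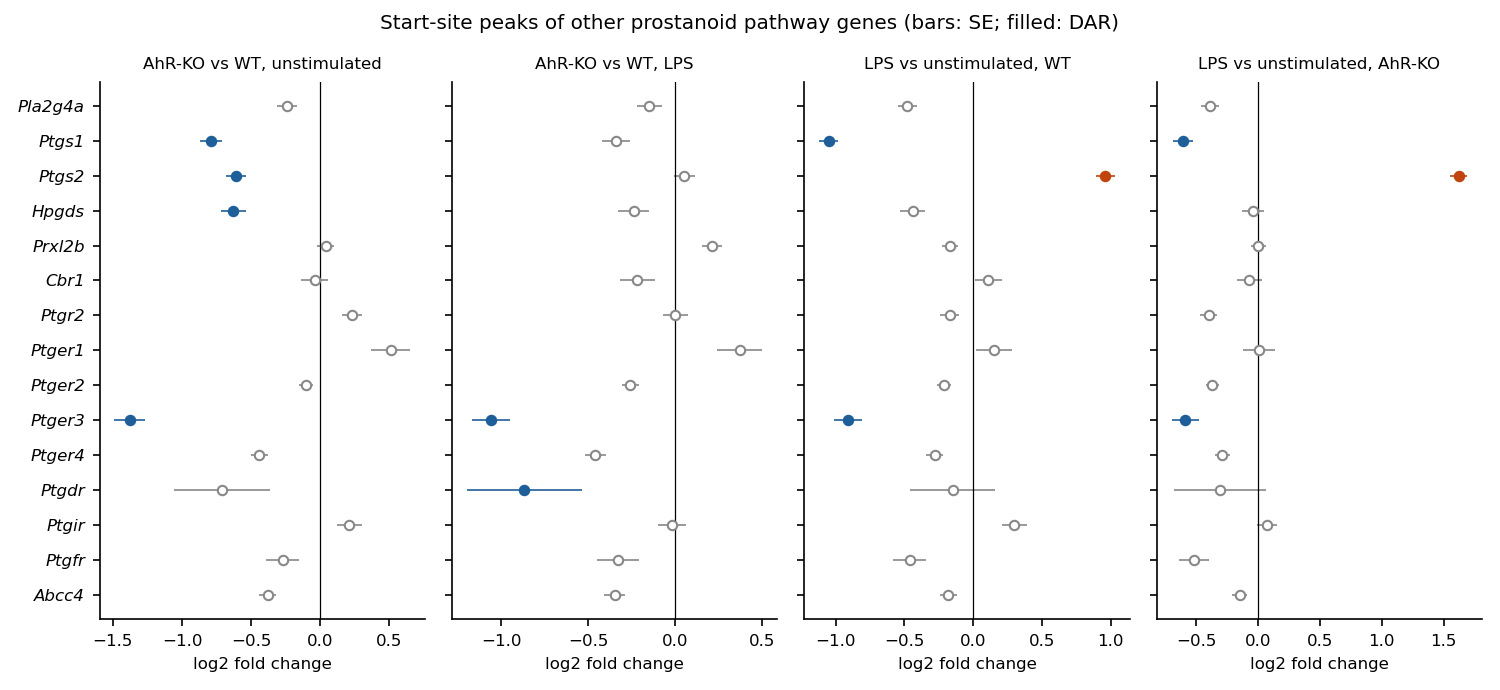
Log2 fold changes of the start-site peaks of the 15 other pathway genes in the 4 pairwise comparisons, with bars of 1 SE and DARs filled. Ptgs1, Ptgs2, Hpgds and Ptger3 lie at the lower side in AhR-KO without LPS, and Ptgs2 is the only one to open with LPS.

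Markers of cell types moved with genotype as well. The summed CPM at the starts of 5 alveolar-type macrophage markers was 35.2 to 41.4 in WT unstimulated and 43.3 to 54.3 in AhR-KO unstimulated libraries, with 2 of 5 higher in AhR-KO, and 25.2 to 29.7 and 26.2 to 32.3 with LPS. The sum over 6 macrophage markers was 113.5 to 130.8 and 130.0 to 167.6 without LPS and 105.3 to 116.8 and 101.3 to 131.5 with LPS, with 0 of 6 a genotype DAR. Kit, the 1 of 4 mast cell markers with a start peak, held 8.98 to 12.97 CPM in WT and 3.98 to 5.31 in AhR-KO unstimulated libraries (-1.21, SE 0.10, adjusted p 9.29e-12), and 10.99 to 15.91 and 5.48 to 7.01 with LPS, while Cpa3, Mcpt4 and Fcer1a had no start peak. Among 4 dendritic cell markers Xcr1 had none, and the sum over 3 was 25.8 to 34.6 CPM in WT and 26.7 to 32.6 in AhR-KO unstimulated libraries, and 28.4 to 45.4 and 20.1 to 25.9 with LPS. Of these, Flt3 was lower in both conditions (-1.16 and -1.29) and Ccr7 with LPS (-1.53). Zbtb46 was no genotype DAR, at 0.21 without LPS and -0.19 with LPS. For neutrophils and their precursors Ly6g, Mpo and Elane had no start peak, and the sum over the other 2 was 21.7 to 26.8 CPM in WT and 25.2 to 29.8 in AhR-KO unstimulated libraries, and 15.9 to 23.4 and 19.3 to 22.1 with LPS. Of these, Cxcr2 was lower in AhR-KO without LPS at 2.26 to 2.96 against 4.02 to 5.60 CPM (-0.84, SE 0.12, adjusted p 7.27e-07) and S100a8 was 0.25 above WT, below the fold threshold. For stromal cells Col1a1 and Cdh5 had none, and the sum over 2 was 4.38 to 5.83 and 5.26 to 8.11 CPM without LPS and 6.21 to 8.08 and 7.80 to 8.85 with LPS. The part of these cell types in the differences at the 9 loci was not tested.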

How the data were processed

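ATAC-seq libraries of 24 BMDM cultures were sequenced as paired ends, and reads were processed by the authors with the nf-core atacseq pipeline on mm10. The authors deposited raw fragment counts per consensus peak, made with featureCounts 2.0.1 at a minimum overlap fraction of 0.2. They also deposited lists of broad peaks called by MACS2 in each library, from which the -log10 q-value was used. The fold enrichment (ratio) that the authors deposited beside each broad peak was not used in any test. Because a consensus peak joins peaks from any library, its edges may be wider than the site in 1 group, and a fragment that overlapped several peaks counted for each. Some peaks were called only in the groups where they were high, so their differences are to be read with that. Among them were Tbxas1 peak 31 and Slco2a1 peak 1, called only without LPS, and Ptges3 peak 3, called only with LPS. Ptges peak 7, Tbxas1 peak 15 and Slco2a1 peak 10 were called in every group but WT unstimulated. Ptges peak 2 lacked a call only in AhR-KO unstimulated, Hpgd peak 12 only in WT LPS and Ptgr1 peak 2 only in AhR-KO LPS. Differences from those groups are to be read with that as well.

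Gene bodies and starts were those of GENCODE vM21, and coordinates are given counting from 1. The quasi-likelihood method of edgeR 4.0.16 (R 4.3.3) was applied to the counts on all 24 libraries, with TMM normalization, filterByExpr by group, a trended dispersion and robust estimates. Group was the only term, and p-values were adjusted over all 174106 tested peaks. The script was tested on simulated data before use. Alternatives were DESeq2 1.42.0, other size factors, no filter, no fold threshold, the groups compared alone, the replicate block, other windows and leaving out each library. Named were, for each gene, the peak over or nearest to the start, the DAR with the smallest p in each comparison and genotype DARs holding TNGCGTG. Start peaks stood for 17 other pathway genes and for markers of macrophages, alveolar-type macrophages, neutrophils, dendritic cells, mast cells, stromal cells, T cells and B cells. The members and lists were chosen with earlier results of these data known. Counts at low peaks were few, so their values are imprecise.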

Additional observations from a re-analysis of the deposited data

Results flagged for a closer look

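Among 128 groups of 6 libraries at named peaks, 8 held a library far from the other 5, and chance gives about 1 in 20. At Ptges peak 2, WT unstimulated replicate 5, the shallowest library, held 2.10 CPM against 1.32 to 1.61 in the others. At Ptgds peak 1, WT unstimulated replicate 6 held 1.79 CPM against 2.45 to 2.80, and AhR-KO unstimulated replicate 1 held 1.775 against 2.20 to 2.42. At Ptgis peak 8, AhR-KO unstimulated replicate 3 held 0.748 CPM against 0.382 to 0.479, and WT LPS replicate 6 held 0.490 against 0.201 to 0.300. At Tbxas1 peak 15, AhR-KO LPS replicate 6 held 6.42 CPM against 7.98 to 8.81. AhR-KO LPS replicate 5 was high at Tbxas1 peak 16 (12.5 CPM against 9.70 to 10.4) and at Tbxas1 peak 24 (17.4 against 12.7 to 14.3).

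The LPS response differed between genotypes, by the interaction test of edgeR, at 5 of the named member peaks and 1 start of the pathway list. The difference in log2 fold change, AhR-KO minus WT, was 1.07 at Ptges peak 2, 1.21 at Ptgis peak 8, -0.63 at Tbxas1 peak 24, 0.64 at Hpgd peak 5, 0.90 at Hpgd peak 12 and 0.66 at the Ptgs2 start.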

How the results depend on the processing

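Of 155 tested values for named peaks, no DAR changed direction under any alternative. Values near 0 that were no DARs did cross it, such as Ptges peak 7 between unstimulated genotypes (-0.07 to 0.22) and Slco2a1 peak 4 between genotypes with LPS (-0.22 to 0.44). Apart from leaving out libraries, alternatives gave 897 values, of which 886 kept their side of the threshold, 3 lost the call and 8 gained it. Leaving out 1 library gave 3720 values, of which 44 lost the call and 19 gained it. Without a fold threshold, 53 member peaks differed between genotypes without LPS and 55 with LPS. Counting only peaks whose nearest coding start was the member's left 19 DARs between genotypes without LPS, 37 with LPS in WT and 37 in AhR-KO, out of fewer peaks. Leaving out 1 library gave 29 to 34 genotype DARs without LPS, 25 to 35 with LPS, 53 to 57 LPS DARs in WT and 56 to 60 in AhR-KO. For the difference between LPS responses it gave 6 to 13, lowest without AhR-KO LPS replicate 4, AhR-KO unstimulated replicate 6 or WT LPS replicate 5 and highest without WT unstimulated replicate 6. The cause was not tested.

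Replicate numbers were not taken to pair the samples. Same-numbered libraries of unstimulated and LPS groups correlated at 0.095 to 0.44 in WT and 0.02 to 0.30 in AhR-KO, and 4 of 6 and 3 of 6 correlated best with their own number. With the replicate number as a block, the counts were 29, 32, 57, 59 and 11. Under the block, Tbxas1 peak 3 was no DAR between unstimulated genotypes (0.58), Ptgr1 peak 2 was a DAR with LPS in AhR-KO (-0.75, adjusted p 0.0383) and Ptges2 peak 3 a DAR for the difference between LPS responses (0.61). Depth limits the small peaks, such as Ptgis peak 8 and Slco2a1 peak 4.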

Other observations

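Slco2a1 peak 6, which had too few counts for testing, held a mean of 0.866 CPM in WT LPS against 0.123 in WT unstimulated, 0.0976 in AhR-KO unstimulated and 0.133 in AhR-KO LPS libraries. It was called as a broad peak in 4 WT LPS libraries and in 0 libraries of the other groups. It thus entered the peak set through the group where it was high, and these levels are to be read with that. In the broad peak lists of single libraries, a mean of 69.5 ± 6.1 of the 134 member peaks were called for WT and 76.0 ± 4.6 for AhR-KO without LPS, against 84.7 ± 3.7 for WT and 85.5 ± 3.5 for AhR-KO with LPS (SD, n = 6). Called numbers move with depth and signal as well as with accessibility at these loci.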
